A study of Mus musculus with 7 samples.

Results

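Pericytes and vascular smooth muscle cells of the embryonic mouse nose were picked out from droplet single-cell RNA libraries by the genes they hold. A cell was kept when at least 500 genes were detected in it and at most 10% of its UMIs (unique molecular identifiers, which count captured transcripts) came from mitochondrial genes. A kept cell was counted as a pericyte or smooth muscle cell when it held at least 2 UMIs of Rgs5, at least 1 UMI of Kcnj8, Abcc9 or Notch3, and no UMI of Pecam1, Cdh5 or Epcam. This rule took 162 of 31465 kept cells, 149 of them from wild-type noses, and left 31303 other cells for comparison. The rule reads measured counts, so the genes it names are given below as a description, with no test. All other genes played no part in it, although they were counted in the same cells.

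The libraries come from a study whose title links the terminal nerve, neurons that make gonadotropin-releasing hormone and olfactory development, and all are of whole noses at embryonic day 14.5. The wild-type (WT) libraries are of the strain CD1 IGS, from 5 noses per the labels, with no statement of which nose gave which library. The other libraries are of a single ProKR2iCre/R26tdTomato nose with the alleles Prokr2em1(cre)Cfe, on B6;SJL, and Gt(ROSA)26Sortm14(CAG-tdTomato)Hze, in which cells with a history of Prokr2-driven Cre carry the tdTomato reporter. The labels describe a sorted and an unsorted preparation of this nose and do not say which library is which. They are called Prokr2Cre libraries 1 and 2, stand for 1 animal and differ from the WT group in strain as well as genotype, so strain, genotype and sorting cannot be told apart. All suspensions were dissociated with papain and collagenase, frozen and thawed before capture.

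Pericytes lie on the wall of capillaries inside the basement membrane they share with the endothelium, and vascular smooth muscle cells wrap arteries, arterioles and veins; both are called mural cells. Endothelial cells recruit them with the growth factor PDGF-B, which acts on the receptor encoded by Pdgfrb, and Notch ligands on the endothelium act on NOTCH3 of the mural cell. In the head, mural cells arise largely from the neural crest, as does much of the mesenchyme around them. Kcnj8 and Abcc9 encode the subunits of an ATP-sensitive potassium channel of mural cells, and Rgs5 encodes a regulator of G-protein signalling.

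WT replicates 3 and 4 shared 7386 of 7396 and 7408 barcodes, so replicate 3 was left out and n = 4 for WT. No other pair shared more than 34 barcodes, and no member's barcode occurred in another of the 6 libraries used. The 6 libraries used held 16773781 to 89800259 UMIs. Members made up 0.911% of kept cells in WT replicate 1 (71 of 7790, exact 95% binomial interval 0.712% to 1.15%), 0.429% in replicate 2 (45 of 10496, 0.313% to 0.573%), 0.313% in replicate 4 (22 of 7029, 0.196% to 0.473%) and 0.338% in replicate 5 (11 of 3250, 0.169% to 0.605%). The WT mean was 0.498% ± 0.280 (SD, n = 4), and replicate 1 stood above the interval of each of the other WT libraries. The share was 0.503% in Prokr2Cre library 1 (9 of 1789, 0.230% to 0.953%) and 0.360% in library 2 (4 of 1111, 0.0982% to 0.919%). When each cell was thinned to 3000 UMIs before the rule was applied, the WT share was 0.238% ± 0.165 (SD, n = 4), so part of the members were found only at full depth; 2669 WT cells below that depth were left out. Members were deeper than other cells of their library, with median UMI counts of 10587, 7521, 6438 and 19200.0 against 9009, 5116, 5845 and 11344 in WT replicates 1, 2, 4 and 5. Members pooled by library held 859548, 364052, 169428 and 209181 UMIs in the same order, so replicate 1 weighs most in values summed over all members. Intervals cover counting error only.

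Among the 162 members, 133 held a UMI of Kcnj8, 114 of Abcc9 and 126 of Notch3, with 83 holding all 3 and 34 a single 1 of them. Levels were summed over the members of a library and expressed as CPM, the usual scaling of counts to a fixed total, given throughout in the order WT replicates 1, 2, 4 and 5. Rgs5 (ENSMUSG00000026678) stood at 929.6, 871, 791 and 645 CPM and Kcnj8 (ENSMUSG00000030247) at 404, 343, 331 and 258 CPM. Abcc9 (ENSMUSG00000030249) stood at 259, 264, 419 and 139 CPM and Notch3 (ENSMUSG00000038146) at 168, 179, 348 and 225 CPM. The cells just inside and just outside the Rgs5 limit differed from the bulk of the members. In the 30 WT members with exactly 2 Rgs5 UMIs the vitronectin gene Vtn stood at 114 CPM, in the 65 WT cells with 1 Rgs5 UMI that met the rest of the rule at 13.8 CPM, and over all WT members at 383 CPM. The fibrillar collagen gene Col1a1 ran the other way, at 649, 609 and 230.3 CPM. Pdgfrb stood at 192 and 175 CPM just inside and outside the limit, 338 CPM over all WT members and 46.7 CPM in other cells.

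Against all other kept cells of the same libraries, 2862 of the 14769 genes tested were called at an adjusted p below 0.05 (19.4%), 1006 higher in members (6.81%) and 1856 lower (12.6%), by edgeR's quasi-likelihood test with the library as a block and Benjamini-Hochberg adjustment over all genes tested. The median log2 fold change of all genes tested was -0.21, and the lists below are read against it and against those percentages. The other cells are a mixture of all cell types of the nose, so the size of a fold depends on that mixture. The split between higher and lower calls depended on the tool: 35.2% of the calls were higher in the edgeR fit and 53.2% of the 1632 calls made by DESeq2. Without WT replicate 1 the edgeR fit made 1835 calls.

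Markers of pericytes outside the rule went with the name given to these cells: of 24 genes 22 were called higher and none lower, with a median log2 fold change of 3.93. The list was chosen with earlier results of these data known, so it is not independent of them. Pdgfrb (ENSMUSG00000024620), the PDGF-B receptor, stood at 363, 294, 413 and 249 CPM in members and 35.2 to 52.4 CPM in other cells. Its log2 fold change was 2.75 ± 0.15 (SE, edgeR adjusted p = 2.52e-32). Vtn (ENSMUSG00000017344), which encodes the matrix protein vitronectin, stood at 337, 368, 454 and 540.2 CPM in members and 2.06 to 22.6 CPM elsewhere, a log2 fold change of 6.09 ± 0.24 (SE, edgeR adjusted p = 6.86e-43). For both genes every WT member value lay above every value of the other cells. The subunits of the nitric oxide receptor guanylyl cyclase rose together. Gucy1a1 stood at 515, 236, 489.9 and 296 CPM against 7.75 to 16.5 CPM, a log2 fold change of 4.90 ± 0.15 (SE, edgeR adjusted p = 1.36e-51). Gucy1b1 stood at 235, 159, 301 and 229 CPM against 4.81 to 7.24 CPM, with a log2 fold change of 5.16 ± 0.18 (SE, edgeR adjusted p = 3.21e-47). Neither subunit's ranges overlapped.

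Higd1b, a mitochondrial hypoxia-response family gene used as a pericyte marker, had the largest fold of the list, 9.50 ± 0.51 (SE, edgeR adjusted p = 4.29e-32). Its members' levels were uneven: 171, 43.9, 41.3 and 57.4 CPM with replicate 1 far above the rest, against at most 0.280 CPM in other cells. Ndufa4l2 and Cox4i2 encode mitochondrial proteins that take the place of usual respiratory chain subunits. Ndufa4l2 stood at 675, 511, 272 and 320.3 CPM against 6.85 to 54.9 CPM, and Cox4i2 at 380.4, 349, 378 and 292 CPM against 16.5 to 30.05 CPM, with log2 fold changes of 4.35 ± 0.16 and 3.86 ± 0.15 (SE). Rgs4, a relative of Rgs5, rose by 5.47 ± 0.29, the cell adhesion gene Mcam by 4.00 ± 0.27, the intermediate filament gene Des by 4.87 ± 0.39 and the connexin gene Gja4 by 4.62 ± 0.32 on the log2 scale (SE). Cspg4, which encodes the NG2 proteoglycan, had a smaller difference, 63.99, 76.9, 59.02 and 38.2 CPM against 10.02 to 31.8 CPM and a log2 fold change of 1.73 ± 0.26 (SE, edgeR adjusted p = 3.97e-08). The genes not called were Anpep, at 0 to 13.96 CPM in members and 3.98 to 6.38 CPM elsewhere, and Kcne4, at 0 to 16.3 and 3.01 to 7.51 CPM. Steap4 was called (log2 fold change 1.71, SE 0.64, adjusted p = 0.047 by edgeR) with UMIs in members of WT replicates 1 and 2 alone, and the call was lost without either of them.

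**Figure D1:**
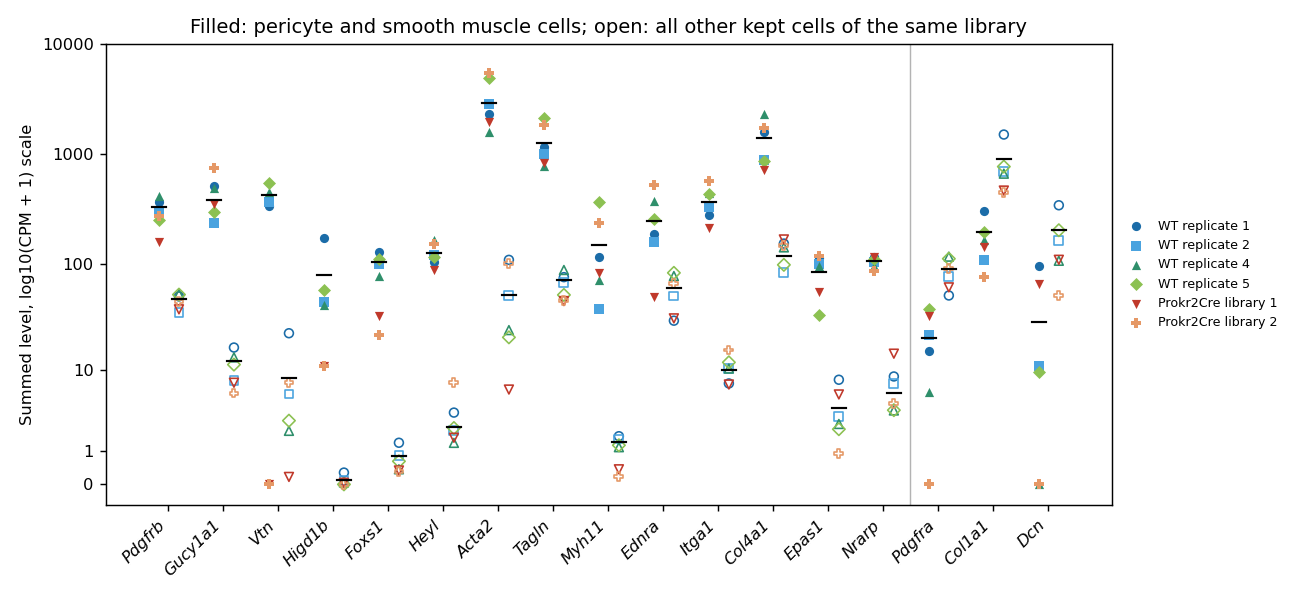
Summed levels of 17 genes in pericyte and smooth muscle cells (filled symbols) and in all other kept cells (open symbols) of each library, on a log10(CPM + 1) axis, with short bars at the mean of the 4 WT libraries. The 14 genes left of the vertical line lie higher in members of the WT libraries, Pdgfra, Col1a1 and Dcn lie lower, and Vtn is at 0 in members of both Prokr2Cre libraries against 337 to 540.2 CPM in WT.

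Genes of the contractile apparatus of smooth muscle were also higher, 19 of 24 tested with none lower and a median log2 fold change of 1.53. Acta2 (ENSMUSG00000035783), which encodes smooth muscle actin, stood at 2326, 2868, 1582 and 4953 CPM in members and 20.7 to 108 CPM in other cells, a log2 fold change of 5.95 ± 0.19 (SE, edgeR adjusted p = 3.11e-50). Tagln (ENSMUSG00000032085), the actin-binding protein transgelin, stood at 1152, 999.9, 779 and 2142 CPM against 51.6 to 87.6 CPM, with 4.05 ± 0.15 (SE, edgeR adjusted p = 3.36e-45) on the log2 scale. The WT ranges of these genes did not overlap, and replicate 5 held the highest level of both. Myh11, the myosin heavy chain of smooth muscle, ran from 38.5 to 368 CPM in members, lowest in replicate 2 and highest in replicate 5, against 1.18 to 1.74 CPM elsewhere (log2 fold change 6.23 ± 0.36, SE). The enteric-type actin gene Actg2 rose by 6.78 ± 0.28, the myosin light chain gene Myl9 by 2.87 ± 0.14, its kinase gene Mylk by 2.40 ± 0.17 and the caldesmon gene Cald1 by 1.59 ± 0.11 on the log2 scale (SE). The tropomyosin genes differed in size, Tpm2 at 2.03 ± 0.12 and Tpm1 at 0.93 ± 0.11. Myocd, which encodes the coactivator myocardin, stood at 9.31, 32.96, 76.7 and 90.8 CPM against 0.502 to 4.15 CPM and had a log2 fold change of 4.23 ± 0.42 (SE, edgeR adjusted p = 3.11e-15). Srf, the DNA-binding partner of myocardin, was not called, with 11.8 to 23.9 CPM in members and 14.7 to 24.2 CPM in other cells. Also not called were Synpo2, Pdlim3, Itga8 and Ppp1r12b.

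SRF binds a DNA element called the CArG box, and the promoters of the contractile genes were searched for it, both strands, in 300 bases from 250 before to 50 after the start of each gene (RefSeq, GRCm38.p6). Tagln, Myh11, Actg2, Myocd and Sh3bgr were not in the table of promoters and were not searched, which left 21 of the 26 genes of the list. A full match lay in 3 of them (Myl9, Vcl and Srf), and a match with at most 1 base of the 6-base core off in 5, which adds Acta2 and Pdlim3. Over all 32851 promoters 1.63% held a full match and 9.98% a match with at most 1 core base off. These percentages are per promoter and the counts above per gene, with 2 promoters each for Cald1, Csrp1 and Ppp1r12b. Myl9 and Vcl were called higher in members and in the Acta2-high members described below, and Acta2 was called higher in members and defines that class, where it was not tested. The matches of these 3 genes are shown in 30-base windows, with the box in capitals, each read 5′ to 3′ on the strand of the gene.
Myl9: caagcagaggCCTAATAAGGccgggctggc
Myl9: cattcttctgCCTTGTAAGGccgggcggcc
Vcl: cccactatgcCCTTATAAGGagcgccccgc
Acta2: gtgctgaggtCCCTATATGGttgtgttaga
Acta2: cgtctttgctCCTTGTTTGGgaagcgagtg
The first Myl9 window lies at chr2:156775293-156775322 and the second at chr2:156775355-156775384, both on the plus strand, with the box 161 and 99 bases before the start. The Vcl window lies at chr14:20929161-20929190 on the plus strand, 227 bases before the start. The Acta2 windows lie on the minus strand at chr19:34255438-34255467 and chr19:34255388-34255417, 84 and 34 bases before the start. The first Myl9 box and the Vcl box match in full, and the second Myl9 box and both Acta2 boxes have 1 core base off. Vcl, the gene of the actin-anchoring protein vinculin, stood at 181, 272, 395 and 292 CPM in members against 44.2 to 153 CPM and Myl9 at 1236, 1389.9, 590.2 and 1401 CPM against 96.2 to 217 CPM. A match in sequence is a description of the promoter and says nothing of binding in these cells.

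Receptors, channels and enzymes of vessel tone gave 14 genes higher and 3 lower of 27 tested (median log2 fold change 1.42). Without replicate 2 the lower calls fell from 3 to 1, and without replicate 1 the higher calls were 10. Ednra, the receptor for endothelin-1 that makes smooth muscle contract, stood at 187, 157, 372 and 258 CPM in members and 29.7 to 82.4 CPM in other cells, with a log2 fold change of 2.03 ± 0.16 (SE, edgeR adjusted p = 1.92e-21). The related receptor gene Ednrb was lower, at 0 to 5.90 CPM in members, 3 UMIs in all, and 6.02 to 12.6 CPM elsewhere, a ratio of 4.88 between the classes (exact 95% interval 1.67 to 23.7, edgeR adjusted p = 0.0112), a call that was lost without replicate 1 or replicate 2. Tbxa2r, the thromboxane receptor, stood at 30.2, 27.5, 11.8 and 47.8 CPM against 2.09 to 2.88 CPM (log2 fold change 3.49 ± 0.45, SE). Calcrl, a receptor component for calcitonin gene-related peptide and adrenomedullin, stood at 23.3, 46.7, 94.4 and 38.2 CPM against 8.21 to 23.7 CPM and rose by 1.42 ± 0.28 on the log2 scale (SE). The angiotensin receptor gene Agtr1a (log2 fold change 1.99, SE 0.61, adjusted p = 0.0106 by edgeR) and the adrenergic receptor gene Adra2a (log2 fold change 1.54, SE 0.41, adjusted p = 0.00236 by edgeR) were called at low levels, 3.49, 10.99, 29.5 and 4.78 and 27.9, 13.7, 23.6 and 9.56 CPM. The Agtr1a call was lost without replicate 2 or 4, and that of Adra2a without replicate 1.

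Downstream of these receptors, the cation channel gene Trpc6 rose by 4.04 ± 0.60 on the log2 scale (SE), and the phosphodiesterase gene Pde3a by 2.52 ± 0.14. Pde3a stood at 97.7, 332, 602 and 636 CPM in members. Prkg1, the kinase activated by cyclic GMP, had a log2 fold change of 1.66 ± 0.12 (SE, edgeR adjusted p = 1.12e-23). Its level differed more between libraries than between cell classes: members stood at 65.2, 1329, 2213 and 1749.7 CPM and other cells at 17.3, 465, 510.5 and 669 CPM. In Prokr2Cre libraries 1 and 2 members stood at 76.5 and 1923 CPM and other cells at 18.1 and 235 CPM. WT replicate 1 and Prokr2Cre library 1 were thus low in both classes. The Cell Ranger version in the file headers was 6.0.1 for replicate 1, 7.0.0 for replicates 2, 4 and 5 and 6.1.2 for both Prokr2Cre libraries, and its part in these levels was not tested. Mrvi1, whose protein is a target of that kinase, stood at 50.03, 52.2, 94.4 and 119.5 CPM against at most 0.701 CPM (log2 fold change 6.82 ± 0.46, SE). The potassium channel gene Kcnk3 rose by 5.66 ± 0.53 on the log2 scale (SE), from 0.361 to 0.817 CPM in other cells to 23.3, 13.7, 35.4 and 86.05 CPM. Abcc8, the sulfonylurea receptor that stands in for Abcc9 in other tissues, was called (log2 fold change 3.13, SE 0.94, adjusted p = 0.00901 by edgeR) at no more than 5.90 CPM, and the call was lost without replicate 1, 2 or 4. The calcium channel gene Cacna1g (-1.42 ± 0.33) and the potassium channel gene Kcnma1 (-1.80 ± 0.50, log2 scale, SE) were lower; Kcnma1 had UMIs in members of replicate 5 alone among the WT libraries, and its call was lost without replicate 2.

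Among Notch genes, 6 of 18 were higher and 4 lower, with a median log2 fold change of -0.40, or -0.22 with genes lacking a UMI in members set at their bound. Without replicate 1 the counts were 5 higher and 2 lower. With each cell thinned to 2000 UMIs before summing, 5 of 12 were higher and 0 lower by edgeR, with 6 at an unadjusted p below 0.05. The calls of Hes1, Hey1 and Mfng were lost there. The targets did not move as 1 group. Heyl stood at 105, 121, 165 and 115 CPM against 1.38 to 3.49 CPM (log2 fold change 5.70, SE 0.30, adjusted p = 1.58e-32 by edgeR), and Nrarp, a feedback inhibitor induced by Notch, at 115, 104, 94.4 and 110.0 CPM against 3.69 to 8.55 CPM (log2 fold change 4.13, SE 0.26, adjusted p = 6.34e-27 by edgeR). The Nrarp values lay close together, 106 ± 8.87 CPM (SD, n = 4). Hey2 rose by 2.69 ± 0.27 and Hey1 by 0.77 ± 0.27 on the log2 scale (SE), the call of Hey1 being lost without replicate 1 or 4. Hes1, a target in many other cell types, was lower, at 244, 79.7, 82.6 and 57.4 CPM in members and 379, 164, 112 and 91.7 CPM in other cells of the same libraries (log2 fold change -0.78, SE 0.16, adjusted p = 8.74e-05 by edgeR); the ranges over libraries overlapped, and members were lower within each WT library. Of the receptors, Notch1 rose by 1.90 ± 0.22 (SE), while Notch2 was not called, at 9.31, 49.4, 82.6 and 43.02 CPM in members and 17.02 to 69.8 CPM elsewhere. Of the ligands, Jag1 stood at 41.9, 96.1, 118 and 143 CPM against 10.02 to 24.2 CPM (log2 fold change 2.26, SE 0.21, adjusted p = 3.27e-16 by edgeR). Jag2, a ligand gene, had no UMI in WT members and was at least 3.02-fold lower than in other cells, taking 3 counts over the group as the floor; the same held for the glycosyltransferase gene Mfng, at least 5.09-fold lower. The Jag2 call was lost without replicate 1.

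**Figure D2:**
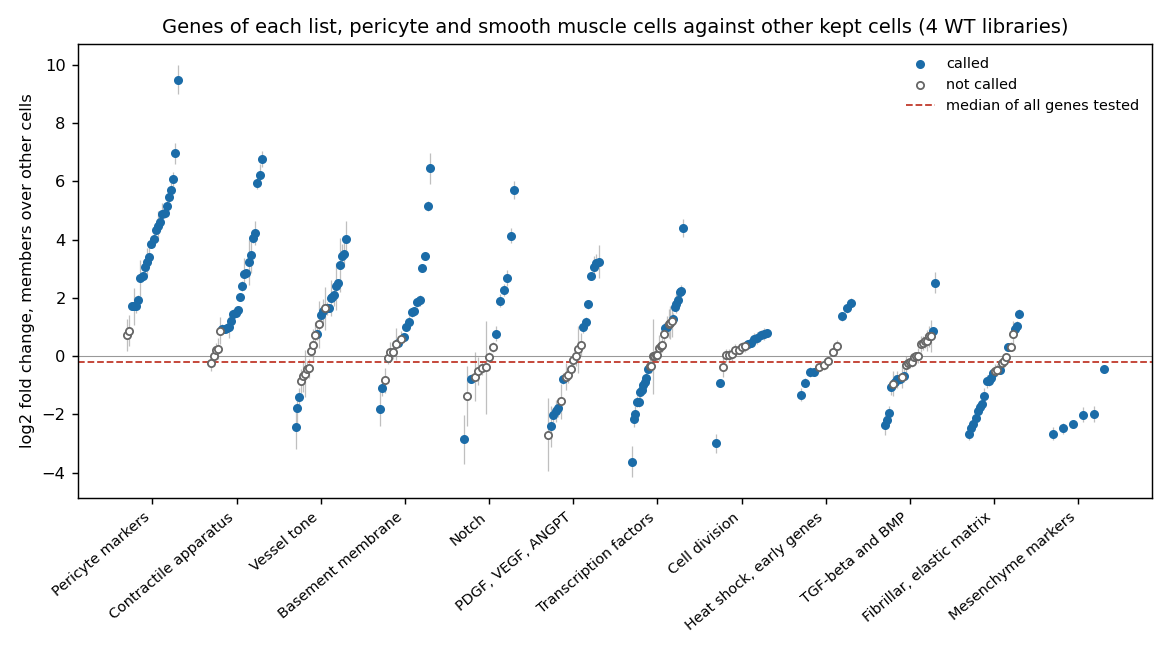
Log2 fold change of each tested gene of 12 lists, members over other kept cells of the 4 WT libraries, with SE bars; filled points were called by edgeR, and the dashed line is the median of all genes tested, -0.21. Pericyte and contractile genes lie above the line with few exceptions and mesenchyme markers below it, and 4 genes without a UMI in members are left out.

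To set ligands beside receptors, endothelial cells were taken from the same libraries as kept cells with a UMI of both Pecam1 and Cdh5 and none of Epcam or Rgs5, 203 cells in all and 174 in WT. The values that follow are ranges over the 4 WT libraries, with no test, and levels of different genes are not compared. Pdgfb, the ligand, stood at 5.49 to 43.02 CPM in members and 63.1 to 96.3 CPM in endothelial cells, and its receptor Pdgfrb at 249 to 413 and 0 to 8.48 CPM. Members held little Pdgfb but more than the other kept cells (1.01 to 2.88 CPM, log2 fold change 3.24 ± 0.56 (SE, edgeR adjusted p = 1.68e-06)). The related ligand gene Pdgfa was on the mural side, 143, 206, 159 and 167 CPM in members against 0 to 8.63 CPM in endothelial cells and 38.2 to 54.96 CPM in all other cells (log2 fold change 1.78, SE 0.16, adjusted p = 8.49e-17 by edgeR). Pdgfra, the receptor of mesenchymal progenitors, was lower in members than in other cells, 15.1, 21.97, 5.90 and 38.2 CPM against 50.96 to 116 CPM (log2 fold change -2.02, SE 0.25, adjusted p = 6.6e-11 by edgeR).

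The angiopoietin genes lay with the mural cells and their receptor with the endothelium. Angpt1 stood at 29.1 to 105 CPM in members and 0 to 3.38 CPM in endothelial cells, and Angpt2 at 19.2 to 88.5 and 4.13 to 14.3 CPM. Tek, which encodes their receptor TIE2, had no UMI in WT members, which allows up to 1.87 CPM, against 99.8 to 291 CPM in endothelial cells. Against all other kept cells Angpt2 rose by 3.06 ± 0.38 on the log2 scale (SE), and Angpt1 was not called, at 30.9 to 83.5 CPM in those cells. The VEGF receptor genes differed from each other: Kdr stood at 0 to 5.90 CPM in members and 344 to 738 CPM in endothelial cells, but Flt1 at 38.4, 68.7, 70.8 and 210.3 CPM in members and 263 to 741 CPM in endothelial cells. Against other kept cells Flt1 rose by 3.21 ± 0.30 (SE) and Kdr was lower (log2 fold change -2.41, SE 0.69, adjusted p = 0.00602 by edgeR), a call lost without replicate 1. With cells thinned before summing the Kdr log2 fold change turned to 0.15 ± 1.18 (SE). S1pr3, a receptor for sphingosine-1-phosphate, stood at 53.1 to 71.7 CPM in members and 0 to 5.66 CPM in endothelial cells, and S1pr1 at 8.24 to 20.9 and 62.9 to 139 CPM, the reverse. The Notch ligand gene Dll4 had no UMI in WT members and 22.1 to 68.3 CPM in endothelial cells, Notch4 had 0 to 4.65 and 43.5 to 65.2 CPM, and Notch1 overlapped between the classes (58.2 to 129.8 and 56.3 to 130.4 CPM). Heyl stood at no more than 0.375 CPM and Hey2 at no more than 5.66 CPM in endothelial cells. Ednra and Ednrb were split as well, at 157 to 372 CPM in members and 0 to 8.48 CPM in endothelial cells for Ednra and 0 to 5.90 and 12.4 to 36.8 CPM for Ednrb. Over the list of PDGF, VEGF, angiopoietin, S1P and CXCL12 genes as a whole, 7 of 22 were higher and 6 lower than in other kept cells, with a median log2 fold change of -0.30, near that of all genes.

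**Figure D3:**
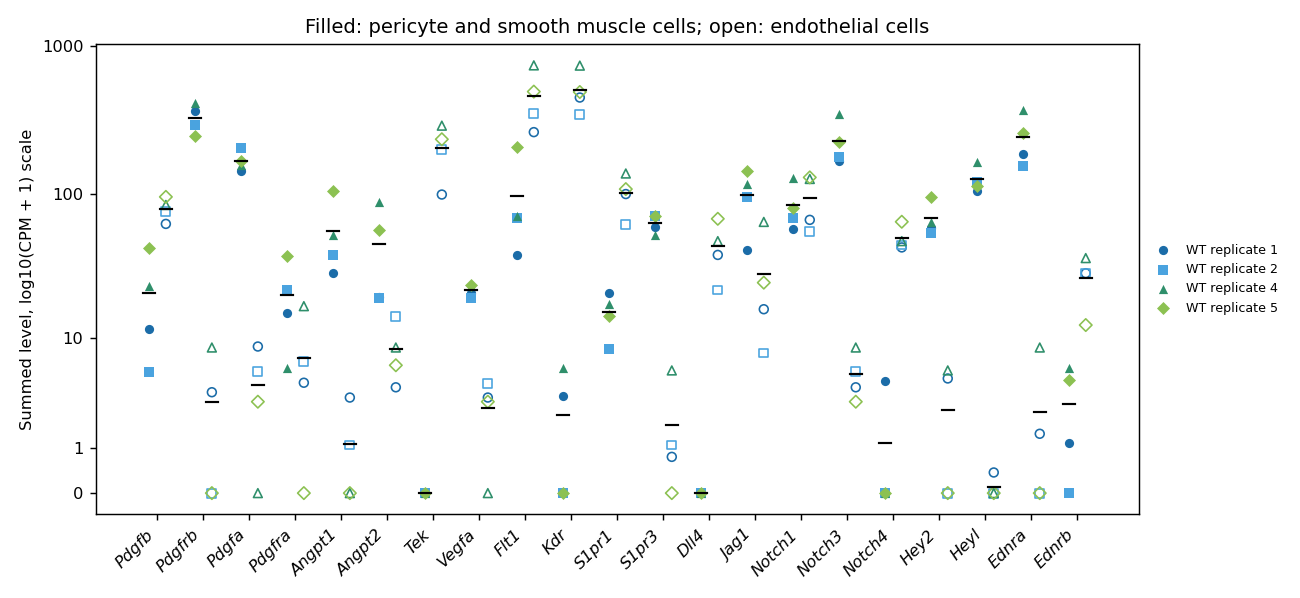
Summed levels of 21 ligand, receptor and target genes in pericyte and smooth muscle cells (filled symbols) and endothelial cells (open symbols) of the 4 WT libraries, on a log10(CPM + 1) axis. Pdgfrb, Pdgfa, Angpt1, Angpt2, S1pr3, Hey2, Heyl and Ednra lie higher in the mural cells, and Pdgfb, Tek, Flt1, Kdr, S1pr1, Dll4, Notch4 and Ednrb lie higher in the endothelial cells.

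Basement membrane genes were mostly higher, 12 of 20 with 2 lower and a median log2 fold change of 0.84, and fibrillar matrix genes mostly lower. Col4a1, a chain of collagen IV, stood at 1579.9, 879, 2296 and 860.5 CPM in members and 83.5 to 153 CPM in other cells, with a log2 fold change of 3.43 ± 0.12 (SE, edgeR adjusted p = 3.84e-47). Its partner chain Col4a2 rose by 3.02 ± 0.13, the laminin chain gene Lama4 by 1.50 ± 0.16, Lamb1 by 1.53 ± 0.16, Lamc1 by 1.91 ± 0.17 and the nidogen gene Nid1 by 1.85 ± 0.16 on the log2 scale (SE). The integrin subunit genes Itga1 and Itga7, whose proteins bind collagen and laminin, had larger folds. Itga1 stood at 278, 327, 443 and 430.2 CPM against 7.26 to 11.8 CPM (log2 fold change 5.15, SE 0.16, adjusted p = 5.45e-53 by edgeR), and Itga7 at 33.7, 32.96, 29.5 and 43.02 CPM against at most 0.793 CPM (log2 fold change 6.45, SE 0.54, adjusted p = 3.98e-19 by edgeR). Hspg2, the gene of perlecan, was lower (log2 fold change -1.09, SE 0.27, adjusted p = 0.001 by edgeR), as was Col15a1 (log2 fold change -1.81, SE 0.60, adjusted p = 0.0208 by edgeR); both calls were lost without replicate 1, where 1 gene of the list was lower.

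Fibrillar collagen, elastic fibre and proteoglycan genes gave 4 higher and 13 lower of 24 (median log2 fold change -0.54). Col1a1 stood at 304, 107, 165 and 196 CPM in members and 663 to 1504 CPM in other cells (log2 fold change -2.33, SE 0.13, adjusted p = 2.79e-30 by edgeR). Decorin (Dcn) and lumican (Lum) were lower, with log2 fold changes of -2.67 ± 0.22 and -2.49 ± 0.20 (SE), as was the lysyl oxidase gene Lox at -1.88 ± 0.27. Dcn was uneven, at 95.4, 10.99, 0 and 9.56 CPM in members, with most of it in replicate 1. The higher genes were Mgp, Bgn, Fbn1 and Col3a1. Mgp, whose product inhibits calcification of vessels, stood at 824, 816, 1375 and 263 CPM against 514, 265, 164 and 175 CPM (log2 fold change 1.45, SE 0.16, adjusted p = 1.86e-13 by edgeR), higher in each library although the ranges overlapped. Bgn, the gene of biglycan, rose by 0.94 ± 0.14 and the fibrillin gene Fbn1 by 1.03 ± 0.16 (SE). The Col3a1 difference was small, 0.32 ± 0.11 (SE, edgeR adjusted p = 0.0284), and the call was lost without replicate 2 or 4. It was also lost with replicate 3 in place of replicate 4 and with at least 3 Rgs5 UMIs. With cells thinned before summing the log2 fold change of Col3a1 turned to -0.037 ± 0.16 (SE).

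Transcription factors of mural cells and head mesenchyme split, 9 higher and 11 lower of 33 tested, with a median log2 fold change of 0.05. Epas1, the gene of the hypoxia-inducible factor HIF-2α, stood at 112, 98.9, 94.4 and 33.5 CPM in members and 2.17 to 7.92 CPM in other cells (log2 fold change 4.41, SE 0.31, adjusted p = 1.93e-23 by edgeR). The T-box gene Tbx2 stood at 95.4, 118, 165 and 139 CPM against 13.1 to 41.2 CPM (log2 fold change 2.25, SE 0.19, adjusted p = 1.43e-19 by edgeR), and the nuclear receptor gene Nr2f2 at 151, 219.7, 508 and 316 CPM against 36.5 to 76.7 CPM (log2 fold change 2.20, SE 0.15, adjusted p = 6.14e-25 by edgeR). Nr2f1 rose by 1.93 ± 0.17, Foxc2 by 1.80 ± 0.33, Foxd1 by 1.28 ± 0.20, Mef2c by 1.69 ± 0.13 and Ebf2 by 0.97 ± 0.19 on the log2 scale (SE). Of the factors in the pericyte list, the forkhead gene Foxs1 stood at 128, 98.9, 76.7 and 110.0 CPM against at most 1.39 CPM (log2 fold change 6.96, SE 0.36, adjusted p = 2.95e-33 by edgeR), Tbx18 rose by 3.05 ± 0.30 and Ebf1 by 1.70 ± 0.11. The lower group held factors of facial mesenchyme: Twist1 (-1.01 ± 0.15), Twist2 (-1.98 ± 0.28), Prrx2 (-1.56 ± 0.18) and Alx1 (-1.16 ± 0.16, SE). Klf4, a repressor of contractile genes in cultured smooth muscle, was lower as well (log2 fold change -2.18, SE 0.26, adjusted p = 9.9e-12 by edgeR).

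Of 25 genes of TGF-β and BMP signalling 2 were higher and 8 lower, with a median of -0.21, equal to that of all genes. Id3, a target of BMP signalling, rose by 0.85 ± 0.11 on the log2 scale (SE). Id1, another target of BMP signalling, was lower (log2 fold change -0.79, SE 0.17, adjusted p = 8.1e-05 by edgeR), as were the ligand gene Bmp4 (-2.37 ± 0.34) and Ltbp1, whose protein stores latent TGF-β (-1.97 ± 0.24, SE).

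Cell division genes gave 7 higher and 2 lower of 17 (median 0.33). Cdk1, the kinase that starts mitosis, stood at 228, 261, 165 and 177 CPM in members and 98.4 to 155 CPM elsewhere (log2 fold change 0.74, SE 0.14, adjusted p = 2.76e-05 by edgeR), and Ube2c rose by 0.78 ± 0.13 (SE). The division marker Mki67 was not called (log2 fold change 0.33, SE 0.18, adjusted p = 0.199 by edgeR), but this changed with the libraries taken. It was called higher without replicate 4 (log2 fold change 0.50), without replicate 5 (0.51), with at least 3 Rgs5 UMIs (0.54) and with a stricter cell filter (0.52; a minimum of 1000 genes, and mitochondrial UMIs up to 5%), and its log2 fold change was negative without replicate 1 (-0.0060). The Rgs5 and cell filter settings also take out replicate 5, which then holds fewer than 10 members, so the 2 changes cannot be told apart. The number of higher genes was 2 without replicate 1, 3 without replicate 2, 2 with replicate 3 in place of replicate 4, 2 by DESeq2 and 3 after thinning. With no library block no gene of the list was called in either direction by edgeR, with 3 at an unadjusted p below 0.05. The inhibitor genes Cdkn1a (log2 fold change -2.999, SE 0.32, adjusted p = 1.03e-13 by edgeR) and Cdkn1c (log2 fold change -0.92, SE 0.11, adjusted p = 6.12e-11 by edgeR) were also called lower without replicate 1, without replicate 2 and by DESeq2. Among 12 heat-shock and immediate early genes 3 were higher (Hspa1a, Hspa1b and Hspb1) and 4 lower (Fos, Fosb, Ier2 and Ier3), with a median of -0.22. The lower calls were 2 without replicate 5, by DESeq2 and after thinning, with those of Fos and Fosb lost each time, and the Fosb call was also lost without replicate 1 or 2. With no library block 0 of the 12 were called by edgeR, with 2 at an unadjusted p below 0.05. Hspa1a, a heat-shock protein gene, stood at 608, 297, 106 and 124 CPM in members and 223, 56.3, 12.3 and 58.4 CPM in other cells (log2 fold change 1.82, SE 0.17, adjusted p = 1.17e-16 by edgeR), and replicate 1 was highest in both classes.

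Beyond the lists, 1446 called genes changed the same way in each WT library with a mean of at least 30 CPM in the higher class. The 15 with the largest folds upward were, with those already given (Higd1b, Foxs1, Mrvi1, Actg2, Itga7, Myh11, Vtn, Acta2, Heyl and Kcnk3), Slc38a11, Map3k7cl, Mustn1, Rasl12 and Lgi1. Map3k7cl stood at 29.1, 27.5, 76.7 and 105 CPM against at most 0.536 CPM (log2 fold change 7.17, SE 0.52, adjusted p = 3.42e-23 by edgeR). Mustn1, a small protein gene of muscle and skeleton, stood at 58.2, 93.4, 53.1 and 90.8 CPM against 0.310 to 1.90 CPM (log2 fold change 6.57, SE 0.46, adjusted p = 7.74e-24 by edgeR). Lgi1, better known as a secreted protein of neurons, was even over the libraries at 72.1, 54.9, 47.2 and 57.4 CPM, against 0.743 to 2.43 CPM (log2 fold change 5.51, SE 0.43, adjusted p = 3.42e-21 by edgeR). Slc38a11, an amino acid transporter family gene, was uneven at 6.98, 32.96, 136 and 19.1 CPM, with most of it in replicate 4. The levels of Mustn1, Map3k7cl and Lgi1 did not overlap with those of other cells in WT. The 15 largest differences downward were those of Krt14, Pf4, Dsp, Fstl5, Ibsp, Snorc, Matn1, Cbr2, Krt17, Lgals3, Krt5, Krt8, Sult1e1, Hapln1 and Sox2, each with few UMIs or none in members. Cells with a UMI of Epcam are barred from members but not from the other cells, so differences in epithelial genes were partly set by the rule. The desmosome gene Dsp had no UMI in WT members and was at least 19.5-fold lower, and the cartilage link protein gene Hapln1 stood at 0 to 8.24 CPM in members and 105 to 218 CPM in other cells (log2 fold change -5.95, SE 0.34, adjusted p = 8.56e-30 by edgeR).

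Markers of other cell types were checked for cells or free RNA that the rule let through. The 6 mesenchyme, 7 epithelial, 6 neuronal, 6 erythroid and 5 cartilage markers were each called lower in members than in other cells, as were 4 of 5 markers each of glia and macrophages, 3 of 4 tested of bone and both skeletal muscle markers that could be tested of 10. Without replicate 1 the lower calls were 2 of 5 for glia, 1 of 2 for skeletal muscle and 2 of 4 for bone. By DESeq2 they were 5 of 6 each for mesenchyme, neurons and erythroid cells. They were also 2 of 5 for glia, 1 of 4 for bone and 1 of 2 for skeletal muscle. After thinning to 2000 UMIs they were 5 of 7 for epithelium, 4 of 6 for neurons and 2 of 4 for macrophages and bone each. There 0 of 4 glial and 0 of 2 skeletal muscle markers were called by edgeR, with 3 and 1 at an unadjusted p below 0.05. Summed over the list, mesenchyme markers ran from 371 to 799 CPM in WT members and from 1521 to 2450.3 CPM in other cells. Epithelial markers ran from 5.90 to 15.1 against 240.7 to 520.2 CPM, with Krt14 and Cldn6 at 0 in WT members; Krt14 was at least 35.7-fold lower. The rule bars cells with a UMI of Epcam from the members and leaves them among the other cells. Lower epithelial markers were therefore partly set by the rule. Glial markers ran from 0 to 2.75 against 31.4 to 49.1 CPM, and macrophage markers from 0 to 29.5 against 70.6 to 164 CPM, with Tyrobp, C1qa and Ptprc at 0. Skeletal muscle markers ran from 8.24 to 29.5 against 35.6 to 130.4 CPM, with Myf5, Myod1, Myog, Myh3, Actc1 and Acta1 at 0 in WT members. Neuronal markers ran from 121 to 249 against 402 to 748 CPM, erythroid from 33.5 to 113 against 832 to 5112 CPM, cartilage from 35.4 to 90.6 against 757 to 1699 CPM and bone from 22.1 to 521 against 398 to 1478 CPM. The bone sum was high in replicate 5 alone, where the 6 Acta2-negative members carried it, and its part in the results for that library was not tested.

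Endothelial markers were the exception, with 3 of 9 higher (Flt1, Esam and Plvap), 3 lower (Kdr, Cldn5 and Tek, all lost without replicate 1) and a median log2 fold change of -0.53. Their sum ran from 204 to 387 CPM in WT members, 54.5 to 191 CPM in all other cells and 4154 to 5732 CPM in endothelial cells. Esam, an adhesion gene of endothelium and platelets, stood at 86.1, 126, 88.5 and 143 CPM in members, 2.72 to 16.2 CPM in other cells and 303 to 686 CPM in endothelial cells (log2 fold change 3.79, SE 0.27, adjusted p = 1.41e-23 by edgeR against other cells). Plvap stood at 17.5, 41.2, 35.4 and 4.78 CPM in members, and its call was lost without replicate 2 or 4. The rule itself removes cells with a UMI of Pecam1 or Cdh5, and Cldn5 and Tie1 stood at no more than 2.75 and 1.16 CPM in WT members, with Tek at 0. The part of endothelial RNA in the levels of Flt1, Pdgfb or Esam was not tested. Of the 149 WT members 7 were among the barcodes with the highest doublet scores, and without such barcodes 2803 genes were called. Of the calls named so far for members against other cells, those of Cbr2, Col15a1, Col3a1, Ednrb, Fos, Fosb, Hey1, Jag2, Kcnma1, Kdr, Mgp, Plvap, Steap4 and Tek were not made by DESeq2. Calls counted in the lists without a gene name are left out here. Some of those for other cell types were lost by DESeq2 as well, as given above.

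Acta2 separated the members. Of the 162, 58 held no Acta2 UMI, 15 held 1 or 2, 16 held 3 to 9, 47 held 10 to 49 and 26 held 50 or more. A cell with 3 or more was called Acta2-high. The 6 WT members with 3 or 4 Acta2 UMIs (2 of replicate 1, 4 of replicate 4) held Tagln at 18.3 CPM, the 14 with 1 or 2 (8 of replicate 1, 6 of replicate 2) at 85.6 CPM, all Acta2-high WT members at 2063 CPM and Acta2-negative ones at 53.9 CPM, so the cells nearest the limit on either side were low in Tagln. Tpm1 differed at the limit, at 1485 CPM with 3 or 4 Acta2 UMIs and 475 CPM with 1 or 2, against 2268 and 723 CPM in all Acta2-high and Acta2-negative WT members. Most cells on the 2 sides of the limit come from different libraries, so the limit and the library cannot be told apart here. The median was 3, 5, 11.5 and 0 UMIs per cell in the WT libraries, with highest cells at 292, 115, 35 and 408. Acta2-high cells made up 52.1%, 51.1%, 77.3% and 45.5% of members, a mean of 56.5% ± 14.2 (SD, n = 4), and 53.6% ± 10.0 after thinning. The exact 95% intervals were wide, from 39.9% to 64.1% in replicate 1 and from 16.7% to 76.6% in replicate 5. As a background, 4.15%, 0.817%, 0.157% and 0.767% of Epcam-positive cells, which should lack smooth muscle actin, held 3 or more Acta2 UMIs, at median depths of 10751, 7461, 8041 and 12528 UMIs.

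**Figure D4:**
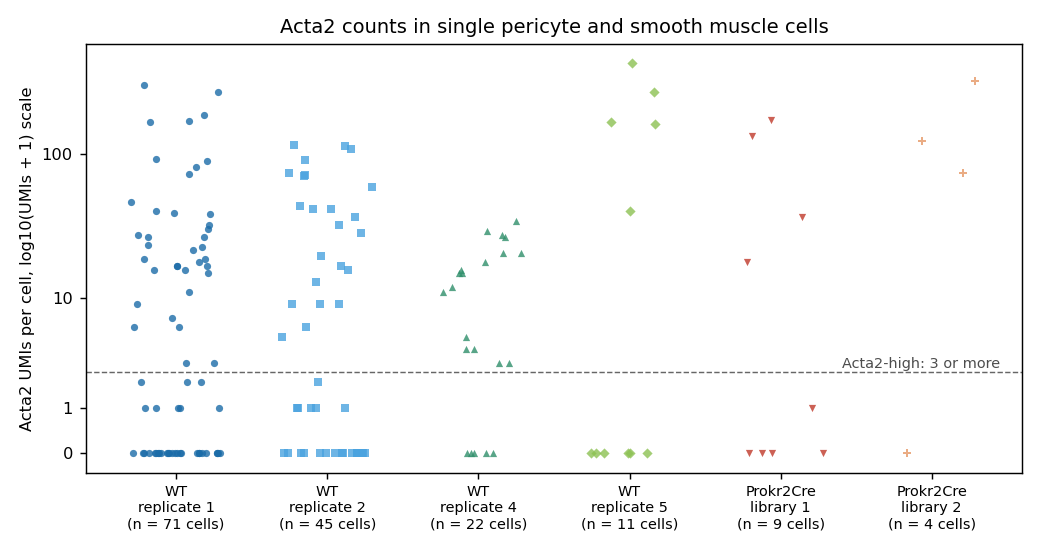
Acta2 UMIs in each of the 162 pericyte and smooth muscle cells by library, on a log10(UMIs + 1) axis. Over the libraries 58 cells hold no Acta2 UMI and 73 hold 10 or more, and the highest cell, in WT replicate 5, holds 408 UMIs.

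Acta2-high members were compared with Acta2-negative members in WT replicates 1 (37 and 26 cells) and 2 (23 and 16 cells), the libraries with at least 10 cells of each class. With 2 libraries the fit leaves 1 residual degree of freedom per gene, pooled across genes by edgeR. It called 83 of 4131 genes (2.01%), 54 higher (1.31%) and 29 lower (0.702%), around a median log2 fold change of -0.02. A fit with at least 5 cells per class, chosen after seeing the data, took in all 4 WT libraries and called 33 of 2255 genes (1.46%), 22 higher (0.976%) and 11 lower (0.488%), of which 30 were also among the 83. Without replicate 1 it called 16, without replicate 2 15, without replicate 4 59 and without replicate 5 39. Acta2-high cells were deeper than Acta2-negative cells in each WT library (medians 11724 and 9986.5, 9257 and 7068, 6891 and 4130.0, 24299 and 14995 UMIs). Their median share of mitochondrial UMIs was lower in each, at 2.83% and 2.90%, 2.57% and 2.87%, 2.81% and 3.10%, and 3.70% and 4.21%. When cells were thinned to 2000 UMIs before summing, none of 793 genes was called by edgeR, with 85 at an unadjusted p below 0.05. Of the 9 contractile genes among the 793, 7 were at an unadjusted p below 0.05. With classes called after thinning but full counts summed, 13 of 13 contractile genes were called higher, against 6.19% of all genes called. The part of depth in these differences was not tested. With no library block 0 of 4131 were called, with 190 at an unadjusted p below 0.05. DESeq2 called 16 of the 4131. With at least 3 Rgs5 UMIs edgeR called 19 of 3034, and with classes called after thinning 246 of 3976.

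The genes that rose with Acta2 were contractile genes first: 8 of 13 tested were higher and none lower, with a median log2 fold change of 1.22, and over 4 libraries 4 of 11 were (median 1.36). Tagln stood at 2141, 1732, 945 and 3575 CPM in Acta2-high cells and 28.6, 111, 0 and 81.6 CPM in Acta2-negative cells. Its log2 fold change was 5.20 ± 0.34 (SE, edgeR adjusted p = 0.000128) in the fit of 2 libraries and 5.21 ± 0.34 (SE, edgeR adjusted p = 6.55e-06) in the fit of 4. Myl9 stood at 1911, 2241, 695 and 2173 CPM against 477, 349, 101 and 291 CPM (log2 fold change 2.28, SE 0.16, adjusted p = 0.000128 by edgeR). Neither gene's ranges overlapped, but Acta2-negative cells of 3 WT libraries held Tagln and those of all 4 held Myl9. The tropomyosin genes rose by 1.71 ± 0.12 (Tpm1) and 2.08 ± 0.16 (Tpm2) on the log2 scale (SE). Tagln, Myl9, Tpm1 and Tpm2 were called over 4 libraries and with each of the 4 left out in turn. Myh11 stood at 215, 70.5, 85.9 and 624 CPM against 3.18, 0, 0 and 0 CPM and Actg2 at 445, 363, 71.6 and 1086 CPM against 0, 7.93, 0 and 0 CPM. Each had 1 UMI in the Acta2-negative cells of the 2 libraries, which gives ratios of 75.4 (exact 95% interval 13.3 to 3005) for Myh11 and 185 (33.0 to 7341) for Actg2, with edgeR adjusted p = 0.000564 and 0.00015. Cald1 (log2 fold change 0.64, SE 0.12, adjusted p = 0.0341 by edgeR) and Vcl (log2 fold change 1.03, SE 0.21, adjusted p = 0.0466 by edgeR) were called in the fit of 2 libraries and missed the threshold in that of 4 (edgeR adjusted p = 0.2 and 0.2). The calls of Cald1 and Vcl were also lost by DESeq2 and with at least 3 Rgs5 UMIs. Myocd, too low to be tested, stood at 13.2, 55.4, 85.9 and 154 CPM against 0, 0, 33.6 and 0 CPM.

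Outside the contractile list, Pdgfa stood at 233, 257, 186 and 251 CPM in Acta2-high cells and 44.5, 127, 33.6 and 46.6 CPM in Acta2-negative cells, with 1.80 ± 0.32 (SE, edgeR adjusted p = 0.0258) on the log2 scale and 1.86 ± 0.31 (SE, edgeR adjusted p = 0.0118) over 4 libraries. Anxa1, the gene of the phospholipid-binding protein annexin A1, stood at 279, 554, 344 and 316 CPM against 57.2, 135, 268 and 23.3 CPM (log2 fold change 2.18, SE 0.23, adjusted p = 0.0015 by edgeR) and was also called over 4 libraries. The small heat-shock gene Hspb1 stood at 917, 332, 129 and 162 CPM against 419.6, 95.2, 0 and 46.6 CPM (log2 fold change 1.31, SE 0.20, adjusted p = 0.0104 by edgeR), higher in Acta2-high cells of each library although the ranges overlapped. Of 12 heat-shock and immediate early genes 2 were called higher by edgeR (Hspb1 and Dnajb1), against 1.31% of all genes, and 0 lower. DESeq2 called 0 of them, with 2 at an unadjusted p below 0.05. Over 4 libraries the Pdgfa call was lost without replicate 1, and those of Anxa1 and Hspb1 without replicate 1 or 2. In the fit of 2 libraries the calls of Pdgfa and Hspb1 were lost by DESeq2 and with at least 3 Rgs5 UMIs. Mustn1 stood at 107, 151, 64.5 and 154 CPM against 3.18, 7.93, 0 and 0 CPM, and the caveolin gene Cav1 at 68.00, 116, 64.5 and 146 CPM against 6.36, 0, 0 and 0 CPM. Both were called in the fit of 2 libraries (edgeR adjusted p = 0.00234 and 0.016), in each case with 2 UMIs in Acta2-negative cells. The Z-disc adaptor gene Pdlim5 (log2 fold change 2.98, SE 0.52, adjusted p = 0.0242 by edgeR) and the Notch target Hey1 (edgeR adjusted p = 0.047, 34 against 3 UMIs) were called there as well. DESeq2 called none of Mustn1, Cav1, Pdlim5 and Hey1, and the Cav1 call was also lost with at least 3 Rgs5 UMIs. In replicate 4, which was not in the fit of 2 libraries, Pdlim5 and Hey1 were lower in Acta2-high cells, at 122 against 168 CPM and 64.5 against 101 CPM. Mgp was called in the fit of 2 libraries (log2 fold change 2.48, SE 0.21, adjusted p = 0.000362 by edgeR) but ran from 105 to 4429.8 CPM in Acta2-negative cells, the top value being that of the 5 such cells of replicate 4, against 1167, 1058, 723 and 373 CPM in Acta2-high cells. Over 4 libraries its log2 fold change was 1.00 ± 0.75 (SE, edgeR adjusted p = 0.68). Those 5 cells also held macrophage markers at 168 CPM summed, against at most 3.18 CPM in the Acta2-negative cells of the other WT libraries, and the part of this in their levels was not tested.

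Acta2-negative members held more of several matrix and secreted-protein genes. Of 21 fibrillar and elastic matrix genes tested 5 were lower in Acta2-high cells (Col1a1, Col3a1, Eln, Mfap4 and Postn) and 1 higher (Mgp), with a median of -0.63. Over 4 libraries 2 of 12 were lower (median -0.20), and 0 without replicate 2, with 3 at an unadjusted p below 0.05. DESeq2 called 1 of 21 lower, and with at least 3 Rgs5 UMIs 0 of 15 were lower by edgeR, with 4 at an unadjusted p below 0.05. In that Rgs5 setting the log2 fold change of Postn turned to 0.51 ± 0.35 (SE). Col1a1 stood at 162, 45.3, 85.9 and 138 CPM in Acta2-high and 556, 222, 537 and 279.6 CPM in Acta2-negative cells, with log2 fold changes of -1.84 ± 0.22 (SE, edgeR adjusted p = 0.00276) in 2 libraries and -1.88 ± 0.27 (SE, edgeR adjusted p = 0.00522) in 4. The large proteoglycan gene Vcan stood at 48.3, 40.3, 93.1 and 97.3 CPM against 207, 238, 134 and 349.5 CPM (log2 fold change -2.21, SE 0.26, adjusted p = 0.0031 by edgeR), and the adhesion gene Alcam at 13.2, 35.3, 21.5 and 81.1 CPM against 200.3, 95.2, 469.8 and 233 CPM (log2 fold change -2.99, SE 0.47, adjusted p = 0.0142 by edgeR); both were also called over 4 libraries. There the calls of Vcan and Alcam were lost without replicate 1, that of Vcan also without replicate 2, and that of Col1a1 without replicate 2. In the fit of 2 libraries those of Vcan and Col1a1 were lost with at least 3 Rgs5 UMIs, and those of Vcan, Alcam, Mfap4, Lpar1 and Igf1 by DESeq2. The elastic fibre gene Mfap4 stood at 32.9, 30.2, 14.3 and 0 CPM against 235, 151, 67.1 and 349.5 CPM (log2 fold change -2.66, SE 0.28, adjusted p = 0.00162 by edgeR). Lpar1, a receptor for lysophosphatidic acid, had no UMI in Acta2-high cells of any library and 47.7, 103, 33.6 and 105 CPM in Acta2-negative WT cells. In the 2 libraries of the fit it was at least 13.9-fold lower in Acta2-high cells (floor of 3 counts over the group, edgeR adjusted p = 0.00958). The growth factor gene Igf1 stood at 8.77, 5.04, 14.3 and 0 CPM against 229, 39.7, 67.1 and 81.6 CPM (log2 fold change -4.36, SE 0.44, adjusted p = 0.00119 by edgeR). The 6 mesenchyme markers summed to 297 to 544 CPM in Acta2-high and 539 to 1303 CPM in Acta2-negative WT cells, against 1521 to 2450.3 CPM in other kept cells. The 5 cartilage markers summed to 25.2 to 40.5 and 63.6 to 127 CPM in the same classes, and the 9 endothelial markers to 219 to 559 and 101 to 270 CPM. The neuronal markers summed to 101 to 276 and 130 to 436 CPM. The bone markers summed to 0 to 28.6 and 0 to 1270 CPM, with the top value in replicate 5. The part of these cell types in the differences was not tested.

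Of 18 pericyte markers tested 0 were called by edgeR or DESeq2 in the fit of 2 libraries, with 10 at an unadjusted p below 0.05 and a median log2 fold change of 0.44. Over 4 libraries Ebf1, 1 of 15, was called (log2 fold change 0.70, SE 0.15, adjusted p = 0.0445 by edgeR), a call lost without any 1 of the 4. Pdgfrb stood at 399, 307, 423 and 284 CPM in Acta2-high cells and 312, 238, 369 and 198 CPM in Acta2-negative cells (log2 fold change 0.38, SE 0.18, adjusted p = 0.414 by edgeR), higher in each library with overlapping ranges. Des was lower in Acta2-high cells of 3 of 4 libraries, 32.9, 95.7, 21.5 and 0 CPM against 124, 174, 0 and 198 CPM, and was not called (log2 fold change -1.40, SE 0.32, adjusted p = 0.0724 by edgeR). Its direction was the same and it was called lower, with log2 fold changes from -1.32 to -1.77, with total counts in place of TMM, without the filter on low counts, without the highest doublet scores, with Acta2-high cells at 5 or more UMIs and with classes called after thinning. Of 15 basement membrane, 14 cell division and 9 vessel tone genes tested 0 were called by either tool, with 6, 2 and 3 at an unadjusted p below 0.05. These counts of 0 did not hold under every alternative. Without the filter on low counts 5 of 24 pericyte markers, 3 of 20 basement membrane genes and 3 of 26 vessel tone genes were called, against 1.97% of all genes tested in that fit. With classes called after thinning 2 of 18 pericyte markers (1 higher, 1 lower), 3 of 15 basement membrane genes and 3 of 6 vessel tone genes were called, against 6.19% of all genes. Without the highest doublet scores 3 of 17 pericyte markers (2 higher, 1 lower), 2 of 13 cell division genes and 2 of 7 vessel tone genes were called, against 4.77%. With Acta2-high cells at 5 or more UMIs 4 of 18 pericyte markers (3 higher, 1 lower) and 2 of 9 vessel tone genes were called, against 3.76%. With total counts in place of TMM 1 pericyte marker, Des, and 1 of 9 vessel tone genes were called, against 2.49%, and with the stricter cell filter 2 of 9 vessel tone genes, against 2.34%.

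**Figure D5:**
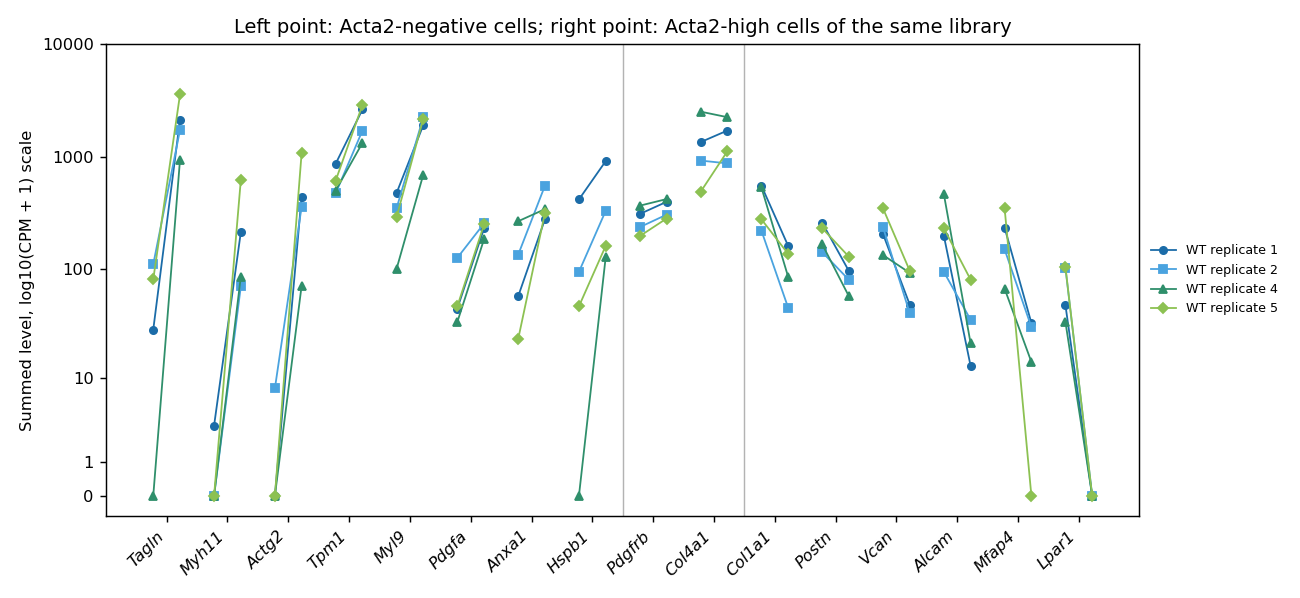
Summed levels of 16 genes in Acta2-negative (left point) and Acta2-high members (right point) of the 4 WT libraries, joined by library, on a log10(CPM + 1) axis. Tagln, Myh11, Actg2, Tpm1, Myl9 and Pdgfa rise in every library, Col1a1, Postn, Vcan, Alcam, Mfap4 and Lpar1 fall in every library, and Pdgfrb and Col4a1 were not called.

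The 9 and 4 members of the Prokr2Cre libraries were too few for the tests and are given as levels. In these members Pdgfrb stood at 158 and 270.1 CPM against 37.9 and 44.9 CPM in other cells, Gucy1a1 at 349.5 and 746 CPM, Heyl at 87.4 and 151 CPM, Nrarp at 115 and 86.4 CPM, Itga1 at 213 and 573 CPM and Acta2 at 1955 and 5489 CPM. For Vtn none of the 13 members held a UMI of it among 183099 and 92554 UMIs, which allows up to 10.9 CPM over both libraries, against 337 to 540.2 CPM in WT members. Other cells of these libraries held Vtn at 0.168 and 7.47 CPM, and those of WT at 2.06 to 22.6 CPM. Tbxa2r and Lamc3 were also at 0 in both Prokr2Cre libraries, but stood at no more than 49.4 CPM in WT members. Higd1b stood at 10.9 and 10.8 CPM and Des at 5.46 and 0 CPM, below every WT library. Acta2-high cells were 4 of 9 and 3 of 4 of these members. Marker sums of other cell types differed from those of WT members as well. Members of library 1 held cartilage markers at 459 CPM summed, against 35.4 to 90.6 CPM in WT members, glial markers at 43.7 CPM against 0 to 2.75 CPM and mesenchyme markers at 868 CPM against 371 to 799 CPM. In library 2 cartilage and glial markers were at 0, mesenchyme markers stood at 378 CPM and endothelial markers at 616 CPM, against 204 to 387 CPM in WT members. The part of these cells in the Prokr2Cre levels was not tested.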

How the data were processed

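The sources are UMI counts per gene and cell barcode from 10x Chromium 3' libraries of whole E14.5 noses. Per the file headers, the authors made these counts with Cell Ranger in version 7.0.0 (WT replicates 2 to 5), 6.0.1 (WT replicate 1) or 6.1.2 (both Prokr2Cre libraries). The submitters' processing notes name Cell Ranger 4, Seurat 4.3.0 and mm10. Whether reads in introns were counted is not given in the sources used here. The counts were used as deposited, over the 30339 genes with a unique symbol among the 30406 gene IDs shared by all libraries.

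Counts were summed per library over members, other cells and Acta2 classes, for libraries with at least 10 cells of each class compared, and tested with edgeR 4.0.16 (quasi-likelihood test, TMM, filterByExpr, library as a block, since both classes come from the same suspension). DESeq2 1.42.0 was an alternative. P-values were adjusted by the Benjamini-Hochberg method over all genes tested, with a threshold of 0.05. With the library as a block, the p-values set the difference between classes against its spread over these libraries. The labels do not say that each library is a separate animal, so this is not known to be a spread over animals. Genes of the rule, and Acta2 between its classes, were never tested. Genes were named from the lists or as the 15 largest changes in each direction among called genes with 1 sign in every library and a mean of at least 30 CPM in the higher class. The members and lists were chosen with earlier results of these data known. Cells were not filtered for doublets: Scrublet's automatic threshold marked at most 0.333% of cells, so the highest scores at 0.8% per 1000 barcodes were left out as an alternative. Promoters come from RefSeq. The fits were tested on simulated counts: for members against other cells 4 of 92 calls were false and 23 of 98 genes changed by 1 and 65 of 97 changed by 2 on the log2 scale were recovered. For the Acta2 classes 5 of 93 calls were false and 13 of 91 and 75 of 85 genes were recovered. The simulation assumed the same dispersion for all genes and a library effect shared by both classes. It changed few genes, as many up as down, whereas 19.4% of genes were called for members against other cells. Its rates of false calls therefore do not carry over to the real data.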

Additional observations from a re-analysis of the deposited data

Results flagged for a closer look

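Of 198 measures examined over the 4 WT libraries, 17 had 1 library far from the other 3. The limit was set for chance to pass it in 1 in 20 measures. That rate does not hold for genes with UMIs in 1 library alone, which are always flagged: Kcnma1 and the 10 genes of low level below. In members, the highest library stood at 171 CPM for Higd1b (replicate 1, others 41.3 to 57.4 CPM), 244 CPM for Hes1 (replicate 1, others 57.4 to 82.6 CPM) and 95.4 CPM for Dcn (replicate 1, others 0 to 10.99 CPM). Hey1 stood at 70.8 CPM in replicate 4 (others 28.7 to 34.9 CPM) and Kcnma1 at 38.2 CPM in replicate 5 (others at 0). For 10 genes of low level UMIs lay in 1 library alone: in replicate 1 Notch4 at 4.65 CPM, Krt17 and Krt8 at 2.33 CPM each and Lgals3, Snorc, Sox2 and Tie1 at 1.16 CPM each, in replicate 2 Krt5 and Sult1e1 at 2.75 CPM each, and in replicate 5 Cbr2 at 4.78 CPM. In Acta2-high members Tinagl1 stood at 118 CPM in replicate 1 (others 81.1 to 85.9 CPM) and Rspo3 at 73.0 CPM in replicate 5 (others 5.04 to 14.3 CPM).

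For 13 genes the difference between classes had 1 sign in both Prokr2Cre libraries and the opposite sign in all 4 WT libraries. These contrasts between the groups were not tested, rest on 9 and 4 members from 1 nose, and strain, genotype and sorting cannot be told apart in them. Members minus other cells, the lower of the 2 Prokr2Cre differences was -7.47 CPM for Vtn against 314.8 to 537 CPM in WT. It was -13.5 CPM for Tbx18 (WT 35.1 to 109), -14.0 CPM for Lamc3 (WT 1.74 to 47.5), -58.6 CPM for Foxd1 (WT 19.9 to 111), -57.7 CPM for Ebf2 (WT 13.3 to 96.1) and -0.796 CPM for Slc38a11 (WT 6.82 to 136). Among receptors it was -0.734 CPM for Agtr1a (WT 1.58 to 26.6), -3.73 CPM for Tbxa2r (WT 9.62 to 45.2) and -5.90 CPM for Adra2a (WT 3.44 to 22.0), and for the contractile gene Smtn -7.10 CPM (WT 1.39 to 21.3). Hes1 and Id1 ran the other way, at 53.3 and 95.7 CPM against -135 to -29.1 and -113 to -7.20 CPM in WT. For Dnajb1 the difference of Acta2-high minus Acta2-negative members was -535 CPM against 1.39 to 182 CPM in WT. These classes hold only 4 and 4 cells in Prokr2Cre library 1 and 3 and 1 in library 2.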

How the results depend on the processing

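Members against other cells gave 2862 calls, 1632 with DESeq2, 864 with no replicate block, 974 after thinning each cell to 2000 UMIs, and 1835 to 2561 with 1 WT library left out. Of 1972 values of 153 genes under these alternatives, 1833 kept direction and side of the threshold, 120 lost the call, 6 gained it and 13 changed sign. After thinning Kdr went to 0.15, Col3a1 to -0.037, Zic1 to -0.84, Ppp1r12b to -0.19 and Srf to 0.74. Srf, negative and not called, was 0.074 with DESeq2, 0.058 with total counts and 0.035 without the filter. With 1 library left out Srf ran from -0.16 to 0.18, Itga8 from -0.62 to 0.064 (positive without replicate 4), Anpep from -0.014 to 1.24 and Mki67 from -0.0060 to 0.51, the last 2 negative without replicate 1; Mki67 was called higher without replicate 4 or 5.

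The Acta2 classes gave 83 calls, 16 with DESeq2, 272 without the filter on low counts, 0 with no replicate block (190 at an unadjusted p below 0.05) and 0 after thinning. They gave 172 without the highest doublet scores, 19 with at least 3 Rgs5 UMIs, 156 with 5 or more Acta2 UMIs, 246 with classes called after thinning and 33 over 4 libraries, where leaving out 1 gave 15 to 59. Of 404 values of 42 genes 283 kept call and direction, 97 lost the call and 21 gained it; Postn went to 0.51 and Col4a1 to -0.19 with at least 3 Rgs5 UMIs and Pdgfrb to -0.070 after thinning. With at least 1 Rgs5 UMI the WT share was 0.7897% and its Acta2-high share 40.8%; with 1 library left out they ran from 0.360% to 0.560% and from 49.6% to 60.2%. Leaving out replicate 1 or 2 of the fit of 2 libraries leaves no residual degree of freedom and was not fitted. Replicates 3, 4 and 5 and the Prokr2Cre libraries hold too few cells to enter that fit, and the Prokr2Cre libraries too few to enter either. Except where a cause is named, the cause was not tested. Depth limits genes of low level most: 0 UMIs in WT members allows up to 1.87 CPM.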
